A study of Mus musculus with 10 samples.

Results

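A set of 10 genes that guide lymphocytes and dendritic cells was followed in subcutaneous tumors after a local injection of CpG1826: the chemokine genes Ccl19, Cxcl13, Ccl17, Ccl22, Ccl20 and Cxcl16 and the receptor genes Ccr7, Cxcr5, Ccr4 and Ccr6. The genes were chosen by name as ligands and receptors of lymphoid and dendritic cell homing, and all 10 were measured, among 19938 genes with a probe of a single gene symbol. The tumors were MC38, a transplanted mouse colon carcinoma line, grown under the skin of C57BL/6 mice to about 40 mm2. In 5 mice (50, 58, 183, 189 and 595) the tumor received 50 µg of CpG1826, an oligodeoxynucleotide that activates the DNA sensor TLR9, in 50 µL of PBS, and in 5 mice (26, 29, 482, 592 and 661) PBS. Tumors were taken 6 h later. The labels describe the CpG1826 schedule for all 10 samples, so the volume and time were assumed to hold for the PBS mice too. Each sample was total RNA of a whole tumor on 1 whole-transcript array, and values are log2 array values as deposited by the authors. Each array was read as 1 mouse. The number of arrays limits the precision.

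Chemokines are small secreted proteins that draw leukocytes along gradients through G protein-coupled receptors. CCL19, made by stromal cells of lymphoid tissue and by dendritic cells, binds CCR7, which carries maturing dendritic cells and naive T cells into lymph nodes, and CXCL13 binds CXCR5 and draws B cells and follicular helper T cells into follicles. CCL17 and CCL22, made by dendritic cells and macrophages, share the receptor CCR4 of regulatory and type 2 helper T cells, CCL20 binds CCR6 of type 17 helper T cells, B cells and immature dendritic cells, and CXCL16 exists as a membrane-bound ligand of CXCR6 on activated T cells.

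Of the 10 genes, 3 rose in CpG1826 tumors and 0 fell (limma with Benjamini-Hochberg adjustment over all genes, adjusted p under 0.05). They were Cxcl13, Ccr7 and Ccl19, each by less than 1 log2 unit. Ligand and receptor of the CCL19 and CCR7 pair thus both passed, whereas Cxcl13 passed and its receptor Cxcr5 did not. The other 7 genes, among them both ligands of CCR4 and the whole CCL20 and CCR6 pair, did not pass. Over all genes, 4.66% passed in either direction, 3.56% as higher and 1.1% as lower. At an unadjusted limma p under 0.05, 5 of the 10 genes were higher and 0 lower, where 15.6% of all genes reached this p in either direction. The CpG1826 and PBS tumors did not overlap for 3 of the 10 genes, all higher, against 6.78% of all genes, 4.35% as higher and 2.42% as lower. The median log2 difference of the 10 genes was 0.20, against -0.02 over all genes. Because the 10 genes were chosen with results of these arrays known, the count is a description and not independent evidence of its direction.

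**Figure D1:**
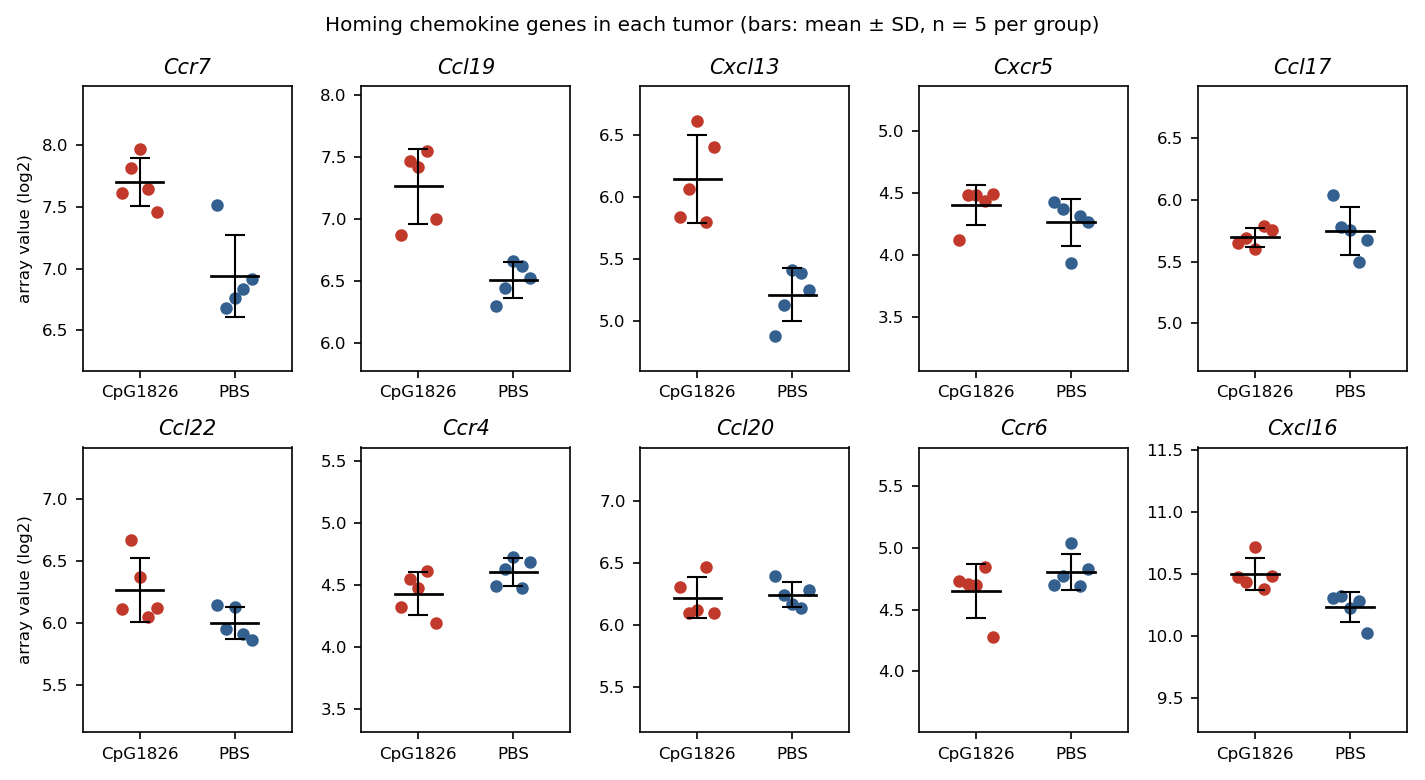
Array values (log2, vertical axis, the same span of 2.3 units in each panel) of the 10 genes in each tumor, with CpG1826 tumors in red on the left and PBS tumors in blue on the right; bars are the mean ± SD of 5 tumors. The groups stand apart for Ccl19, Cxcl13 and Cxcl16, and for Ccr7 all PBS tumors except mouse 26 lie below the CpG1826 tumors.

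Among the ligands of lymphoid organs, Cxcl13 had the largest difference of the 10 genes. Its log2 values were 5.84, 6.06, 6.61, 5.79 and 6.40 in CpG1826 mice 50, 58, 183, 189 and 595, against 4.88, 5.13, 5.41, 5.38 and 5.25 in PBS mice 26, 29, 482, 592 and 661. The lowest CpG1826 tumor, mouse 189, lay above the highest PBS tumor, mouse 482. The means were 6.14 ± 0.36 in CpG1826 tumors and 5.21 ± 0.22 in PBS tumors (SD, n = 5 each), a log2 difference of 0.93 ± 0.15 (SE). This is 1.91-fold (95% confidence interval 1.51 to 2.40, limma adjusted p = 0.00268), and 5 of 5 CpG1826 tumors were higher than any PBS tumor. By the size of its difference Cxcl13 stood in place 159 of the 19938 genes.

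Ccl19 rose as well. Its values were 6.87, 7.47, 7.42, 7.55 and 7.01 in CpG1826 mice 50, 58, 183, 189 and 595, against 6.30, 6.44, 6.67, 6.63 and 6.52 in PBS mice 26, 29, 482, 592 and 661. The groups did not overlap, and CpG1826 mice 50 and 595 were the closest to the PBS tumors. The means of 7.26 ± 0.30 in CpG1826 tumors and 6.51 ± 0.15 in PBS tumors (SD, n = 5 each) differed by 0.75 ± 0.13 on the log2 scale (SE), or 1.69-fold (1.39 to 2.04, limma adjusted p = 0.00349).

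The Ccl19 signal comes from probes that may not tell the gene from its copies. The annotation assigns 5 probes to Ccl19, and the RefSeq gene table for GRCm38.p6 holds 3 Ccl19 pseudogenes, all on chromosome 4 as is Ccl19 itself, and the gene Gm2023, which carries Ccl19 as a synonym. Across the 10 arrays the 5 probes gave 4 distinct profiles, since 2 of them had identical values. When all probes were tested on their own, the 5 probes differed by 0.60 to 0.82 on the log2 scale, each with its groups apart, and the limma adjusted p ran from 0.0182 to 0.0485. The probe with the smallest difference stood out in PBS mouse 26, where it read 6.52 and the others 6.17 to 6.30. Probe sequences were not used here, so the part of any copy in the Ccl19 signal was not tested.

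**Figure D2:**
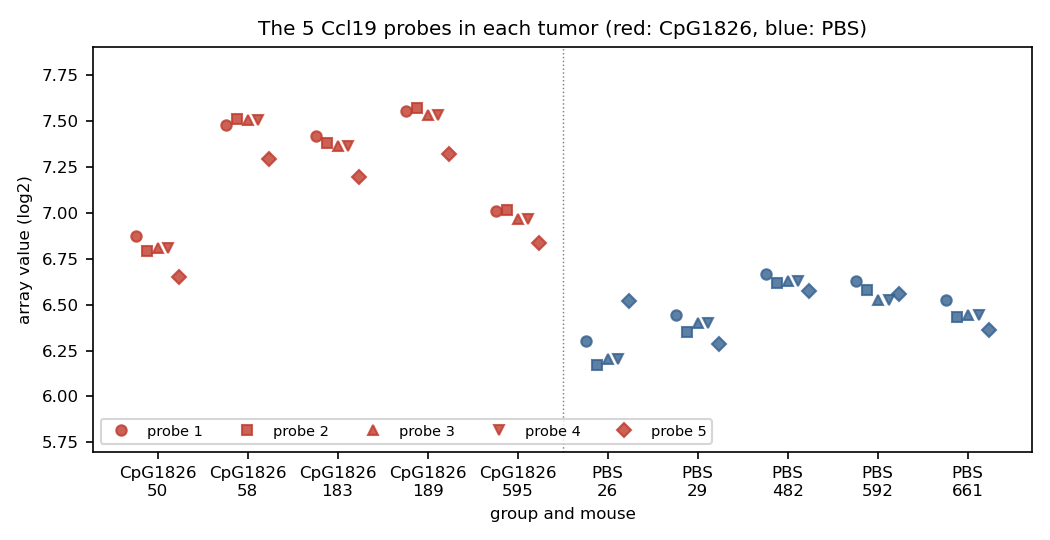
Array values (log2, vertical axis) of the 5 probes assigned to Ccl19 in each of the 10 tumors (horizontal axis, CpG1826 mice in red on the left, PBS mice in blue on the right), with probes ordered by mean level and probe 1 the one used for the gene. Each probe is higher in every CpG1826 tumor than in any PBS tumor, and probe 5 departs from the others in PBS mouse 26.

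Promoter sequence was at hand for 7 of the 10 genes. Those of the ligands that rose, Ccl19 and Cxcl13, are shown beside Ccl22 and Ccl20, which did not pass, from 250 bases before to 50 bases after the start of the gene, 5′ to 3′ on the gene's strand (RefSeq, GRCm38.p6). Capitals mark matches, on either strand, to GAAA, any 2 bases and GAAA again (the core of the interferon-stimulated response element), to the κB consensus bound by NF-κB, or to TATAAA (the TATA box).
Ccl19, chr4:42756316-42756615, minus strand: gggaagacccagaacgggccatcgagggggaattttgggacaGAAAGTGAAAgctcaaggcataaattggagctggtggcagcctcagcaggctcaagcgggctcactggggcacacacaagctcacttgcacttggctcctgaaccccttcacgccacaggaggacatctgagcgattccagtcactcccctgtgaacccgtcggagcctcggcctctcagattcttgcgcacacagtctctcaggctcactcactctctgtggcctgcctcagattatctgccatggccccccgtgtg
Cxcl13, chr5:95956689-95956988, plus strand: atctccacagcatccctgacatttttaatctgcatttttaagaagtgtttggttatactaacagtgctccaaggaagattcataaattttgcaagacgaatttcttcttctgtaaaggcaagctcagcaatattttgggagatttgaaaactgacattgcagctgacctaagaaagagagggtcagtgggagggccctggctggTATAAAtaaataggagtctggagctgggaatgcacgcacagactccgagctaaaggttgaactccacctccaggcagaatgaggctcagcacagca
Ccl22, chr8:94745434-94745733, plus strand: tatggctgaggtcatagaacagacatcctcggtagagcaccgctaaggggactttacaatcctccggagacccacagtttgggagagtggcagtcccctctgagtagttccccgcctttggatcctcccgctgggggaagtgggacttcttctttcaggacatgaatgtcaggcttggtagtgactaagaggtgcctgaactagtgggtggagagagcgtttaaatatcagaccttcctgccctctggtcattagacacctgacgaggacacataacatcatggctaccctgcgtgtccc
Ccl20, chr1:83116516-83116815, plus strand: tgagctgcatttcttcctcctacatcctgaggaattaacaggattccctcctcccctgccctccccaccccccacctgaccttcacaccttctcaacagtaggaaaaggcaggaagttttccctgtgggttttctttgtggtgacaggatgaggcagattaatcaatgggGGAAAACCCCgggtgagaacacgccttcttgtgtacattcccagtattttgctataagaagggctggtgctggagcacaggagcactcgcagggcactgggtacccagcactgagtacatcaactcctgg

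The Ccl19 window held 1 match to the interferon response element core, which begins at position -208 from the start, and the Cxcl13 window held 1 TATAAA at -46. The Ccl20 window held 1 match to the κB consensus, on the opposite strand, at -80, and the Ccl22 window held 0 matches to any of the motifs. Of 32851 promoter windows of the same length, 3.44% held this core, 4.51% the κB consensus and 13.6% TATAAA. Of the remaining windows, those of Ccl17 and Ccr4 and the first Ccr6 window held no match, and the second Ccr6 window held overlapping matches to the κB consensus near -80. These letters describe the windows and are not shown to be sites in use.

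Ccr7, the receptor for CCL19, was measured at 7.61, 7.81, 7.96, 7.64 and 7.46 in CpG1826 mice 50, 58, 183, 189 and 595, against 7.51, 6.68, 6.76, 6.83 and 6.92 in PBS mice 26, 29, 482, 592 and 661. The PBS tumor of mouse 26 was higher than the lowest CpG1826 tumor, that of mouse 595, and so the groups overlapped by this 1 tumor. The means were 7.70 ± 0.19 in CpG1826 tumors and 6.94 ± 0.33 in PBS tumors (SD, n = 5 each), a log2 difference of 0.75 ± 0.14 (SE). The fold change was 1.69 (1.36 to 2.09, limma adjusted p = 0.00724), and 4 of 5 CpG1826 tumors exceeded every PBS tumor. Without PBS mouse 26 the log2 difference was 0.90 (limma adjusted p = 0.000440), and over the fits that each left out 1 mouse it was 0.69 to 0.90 (adjusted p = 0.000440 to 0.0234).

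Cxcr5, the receptor for CXCL13, did not pass. Its values were 4.12, 4.48, 4.48, 4.44 and 4.49 in CpG1826 mice 50, 58, 183, 189 and 595, against 4.43, 4.37, 3.94, 4.31 and 4.26 in PBS mice 26, 29, 482, 592 and 661. The groups overlapped, with CpG1826 mouse 50 below 4 of the PBS tumors. The log2 difference was 0.14 ± 0.10 (SE; 95% confidence interval -0.08 to 0.36, limma adjusted p = 0.579). Leaving out PBS mouse 482 gave 0.06, and leaving out CpG1826 mouse 50 gave 0.21. Cxcr5, Ccr4 and Ccr6 lay in the lower quartile of gene levels on these arrays, where array values tend to understate a change.

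The CCR4 ligands, products of dendritic cells and macrophages, did not pass. Ccl22 had 6.11, 6.67, 6.38, 6.05 and 6.12 in CpG1826 mice 50, 58, 183, 189 and 595, against 6.15, 5.96, 6.13, 5.92 and 5.87 in PBS mice 26, 29, 482, 592 and 661. Mice 58 and 183 were the highest of all 10 tumors, and the other 3 CpG1826 tumors lay among the PBS tumors. The log2 difference was 0.26 ± 0.11 (SE, 0.02 to 0.51, limma adjusted p = 0.277), and 0.16 without CpG1826 mouse 58.

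Ccl17 read 5.65, 5.69, 5.60, 5.79 and 5.75 in CpG1826 mice 50, 58, 183, 189 and 595, against 6.03, 5.78, 5.76, 5.50 and 5.67 in PBS mice 26, 29, 482, 592 and 661. The PBS tumors held both the highest and the lowest value. The log2 difference was -0.05 ± 0.09 (SE, -0.25 to 0.14, limma adjusted p = 0.844), and 0.02, -0.11 and -0.03 without PBS mouse 26, PBS mouse 592 and CpG1826 mouse 183. The 95% confidence interval spans a 1.10-fold higher to a 1.19-fold lower level in CpG1826 tumors.

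Their receptor Ccr4 had 4.32, 4.55, 4.48, 4.61 and 4.20 in CpG1826 mice 50, 58, 183, 189 and 595, against 4.50, 4.63, 4.73, 4.48 and 4.69 in PBS mice 26, 29, 482, 592 and 661. The groups overlapped, with the 2 lowest values in CpG1826 mice 595 and 50. The log2 difference was -0.17 ± 0.09 (SE, -0.36 to 0.02, limma adjusted p = 0.382), and -0.11 without CpG1826 mouse 595.

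Ccl20, which epithelial cells make on inflammatory signals, read 6.31, 6.09, 6.12, 6.47 and 6.10 in CpG1826 mice 50, 58, 183, 189 and 595, against 6.39, 6.24, 6.16, 6.14 and 6.28 in PBS mice 26, 29, 482, 592 and 661. Mouse 189 was the highest of all tumors and 3 CpG1826 tumors were the lowest. The log2 difference was -0.03 ± 0.09 (SE, -0.21 to 0.16, limma adjusted p = 0.929), and its sign turned when any of 3 single mice was left out.

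Ccr6 had 4.73, 4.71, 4.69, 4.84 and 4.28 in CpG1826 mice 50, 58, 183, 189 and 595, against 4.70, 4.77, 5.04, 4.69 and 4.82 in PBS mice 26, 29, 482, 592 and 661. Mouse 595 stood below all other tumors. The log2 difference was -0.15 ± 0.10 (SE, -0.38 to 0.07, limma adjusted p = 0.546), and it was -0.06 without CpG1826 mouse 595 and -0.09 without PBS mouse 482.

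Cxcl16, the membrane-bound ligand, was separated between the groups but did not pass. Its values were 10.48, 10.43, 10.72, 10.38 and 10.48 in CpG1826 mice 50, 58, 183, 189 and 595, against 10.31, 10.32, 10.22, 10.28 and 10.02 in PBS mice 26, 29, 482, 592 and 661. Every CpG1826 tumor was higher than every PBS tumor, as was the case, in this direction, for 4.35% of all genes. The means of 10.50 ± 0.13 in CpG1826 tumors and 10.23 ± 0.12 in PBS tumors (SD, n = 5 each) differed by 0.27 ± 0.08 on the log2 scale (SE, 0.09 to 0.44, limma adjusted p = 0.0997). When the lower 50% of genes by level were dropped, the same difference had a limma adjusted p of 0.0440, and with a trended and robust prior 0.0441.

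Of 20 measured partner genes of these axes (receptors, scavengers, sheddases and related guidance genes), 1 rose and 0 fell. Among all genes 3.56% rose and 1.1% fell, so this count is near the share of all genes. The median log2 difference of the partners was -0.05. The gene that rose was Ccrl2, an atypical receptor of activated leukocytes that binds chemerin. It averaged 8.47 ± 0.30 in CpG1826 tumors and 7.09 ± 0.21 in PBS tumors (SD, n = 5 each; 2.60-fold, 2.11 to 3.20, limma adjusted p = 5.29e-05). Cxcr6, the receptor of CXCL16, differed by -0.09 ± 0.25 (SE, limma adjusted p = 0.911), the widest error among the partners. Adam10 and Adam17, proteases that shed CXCL16, were at -0.14 and 0.19. The scavenger receptors Ackr2, Ackr3 and Ackr4 were at 0.30, -0.04 and 0.07, and the tissue homing genes Ccl1, Ccr8, Ccl25, Ccr9, Ccl28 and Ccr10 at -0.20, -0.05, -0.18, -0.13, -0.05 and -0.12. Cxcl12 and its receptor Cxcr4 were at -0.12 and -0.01, and Cxcl14 at -0.04. Of the oxysterol guidance genes, Ch25h and Cyp7b1, which both take part in making the ligand, were at -0.27 and 0.55, and its receptor Gpr183 at -0.23. S1pr1, which lets lymphocytes leave tissue, was at 0.17. None of these passed except Ccrl2. The probes for Ccl21a, Ccl21b, Ccl21c and Ccl27a carry several symbols each, so no value was assigned to any of these CCR7 and CCR10 ligands. With all probes tested on their own, the 4 probes shared by the Ccl21 genes had identical values, which averaged 7.59 ± 0.43 in CpG1826 tumors and 7.03 ± 0.71 in PBS tumors (SD, n = 5 each; log2 difference 0.57 ± 0.32, limma adjusted p = 0.560), and the 3 probes shared by Ccl27a and its copies differed by 0.10 to 0.17 (limma adjusted p = 0.689 to 0.822).

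**Figure D3:**
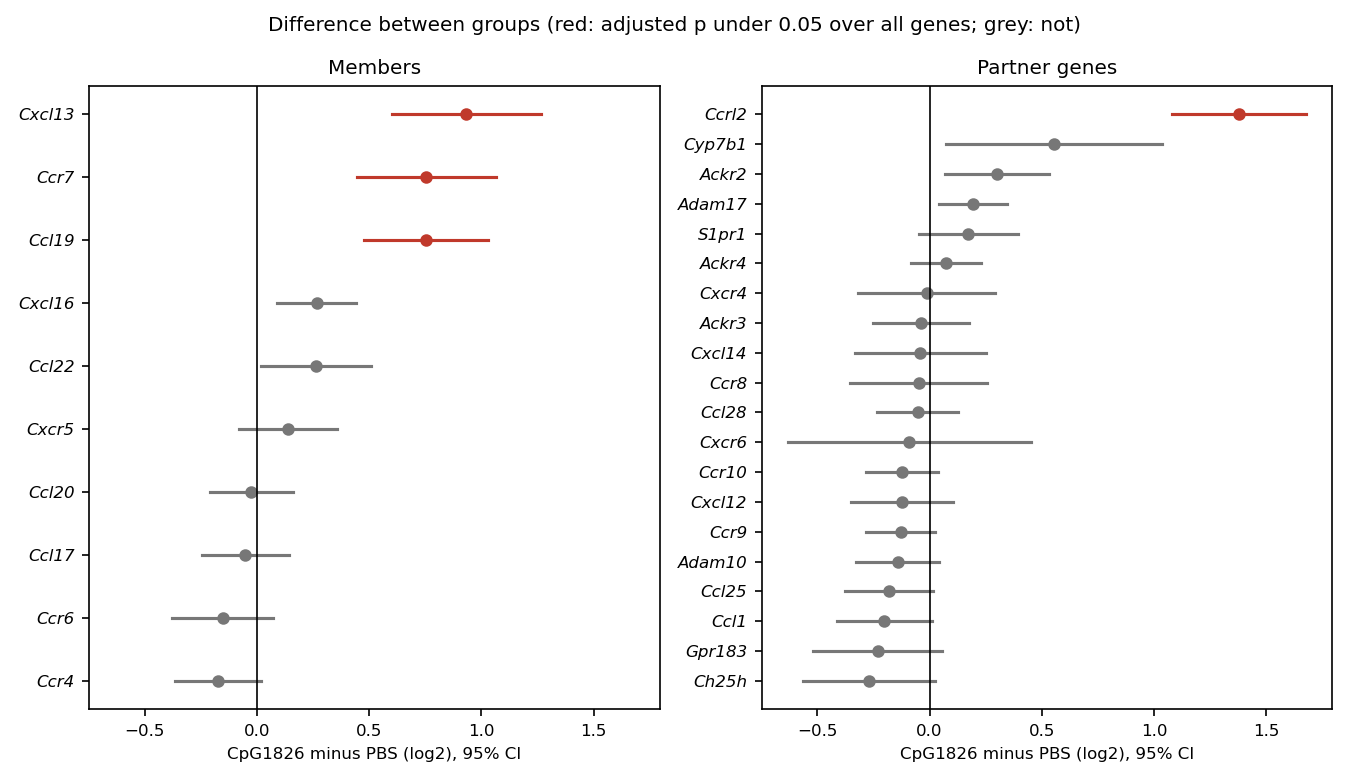
Difference between groups (CpG1826 minus PBS, log2, horizontal axis; point: estimate, line: 95% confidence interval of the limma test) for the 10 genes on the left and the 20 partner genes on the right, in red where the adjusted p over all genes was under 0.05. Cxcl13, Ccr7 and Ccl19 passed on the left and Ccrl2 on the right, and the intervals of Ccl17, Ccl20, Ccr4, Ccr6 and Cxcr5 include 0.

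Within an array, the difference between the members of a pair was compared between groups for 7 pairs, which asks whether the genes of a pair moved by unequal amounts. For Ccl19 minus Ccr7 the change was 0.00 log2 units (exact permutation test, two-sided p = 1, adjusted p = 1 over the 7 pairs). For Cxcl13 minus Cxcr5 it was 0.79, with 1.74 ± 0.30 in CpG1826 tumors and 0.95 ± 0.38 in PBS tumors (SD, n = 5 each; exact permutation test, two-sided p = 0.0159, adjusted p = 0.0833). For Ccl22 minus Ccr4 it was 0.44 (exact permutation p = 0.0238, adjusted p = 0.0833), and for Ccl22 minus Ccl17 0.32 (exact permutation p = 0.0556, adjusted p = 0.130). Cxcl16 minus Cxcr6 changed by 0.36, Ccl20 minus Ccr6 by 0.13 and Ccl17 minus Ccr4 by 0.12, with exact permutation p-values of 0.198, 0.317 and 0.373. None of the 7 pairs passed after adjustment, 2 were under 0.05 before it, and the smallest p that 5 against 5 allows is 0.00794. Adjusted over 7 pairs, that smallest p becomes 0.0556, so no pair on its own could have passed and the adjusted values say nothing about equal or unequal change. Leaving out 1 mouse took Cxcl16 minus Cxcr6 to 0.18 (CpG1826 mouse 50), Ccl20 minus Ccr6 to 0.07 (CpG1826 mouse 595) or 0.05 (PBS mouse 482), and Ccl17 minus Ccr4 to 0.05 (CpG1826 mouse 595) or 0.22 (PBS mouse 26).

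The 3 genes that rose were not highest in the same tumors. Among CpG1826 tumors, mouse 183 was highest for Ccr7 and Cxcl13, and mouse 189 was highest for Ccl19 but lowest for Cxcl13. Among PBS tumors, mouse 26 was lowest for both ligands and highest for Ccr7. The 3 genes nearest to each of them over the 10 arrays, by the root mean square difference of values centred on each gene's mean, therefore differed. Nearest to Ccl19 were Usp18 (0.14 log2 units), Isg20 (0.14) and Helz2 (0.16), all known interferon-stimulated genes, where the median over all genes was 0.46. These 3 differed between groups by 0.88, 0.64 and 0.64. Like Ccl19 they were lowest in mouse 50 among CpG1826 tumors and highest in mouse 482 among PBS tumors. They were picked for likeness to Ccl19 over these same tumors, so the shared extremes follow from that choice. The interferon response element core of the Ccl19 window had 0 matches in the 3 Isg20 windows and in the Helz2 window. No window was at hand for Usp18, and a route shared by these genes was not tested.

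Nearest to Cxcl13 were Gpr31b (0.14), Gch1 (0.14) and Csf3r (0.15), against a median of 0.56 over all genes. Gch1 encodes the first enzyme of tetrahydrobiopterin synthesis, a cofactor of nitric oxide synthase, and Csf3r the receptor of G-CSF on neutrophils. Their log2 differences were 0.98, 0.85 and 1.10, and all of them peaked in CpG1826 mouse 183, as Cxcl13 did. Nearest to Ccr7 were Cd24a (0.17), a surface glycoprotein of leukocytes and epithelia, Cacna1d (0.19), a calcium channel subunit, and Rapgef5 (0.20), a Rap exchange factor, against a median of 0.48. They differed by 0.89, 0.83 and 0.66, and each was highest among PBS tumors in mouse 26, the tumor with the raised Ccr7 value. Nearness here rests on 10 arrays and a shared group difference. The genes were picked by it, so the tumors in which they peak together are no separate evidence of a link.

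**Figure D4:**
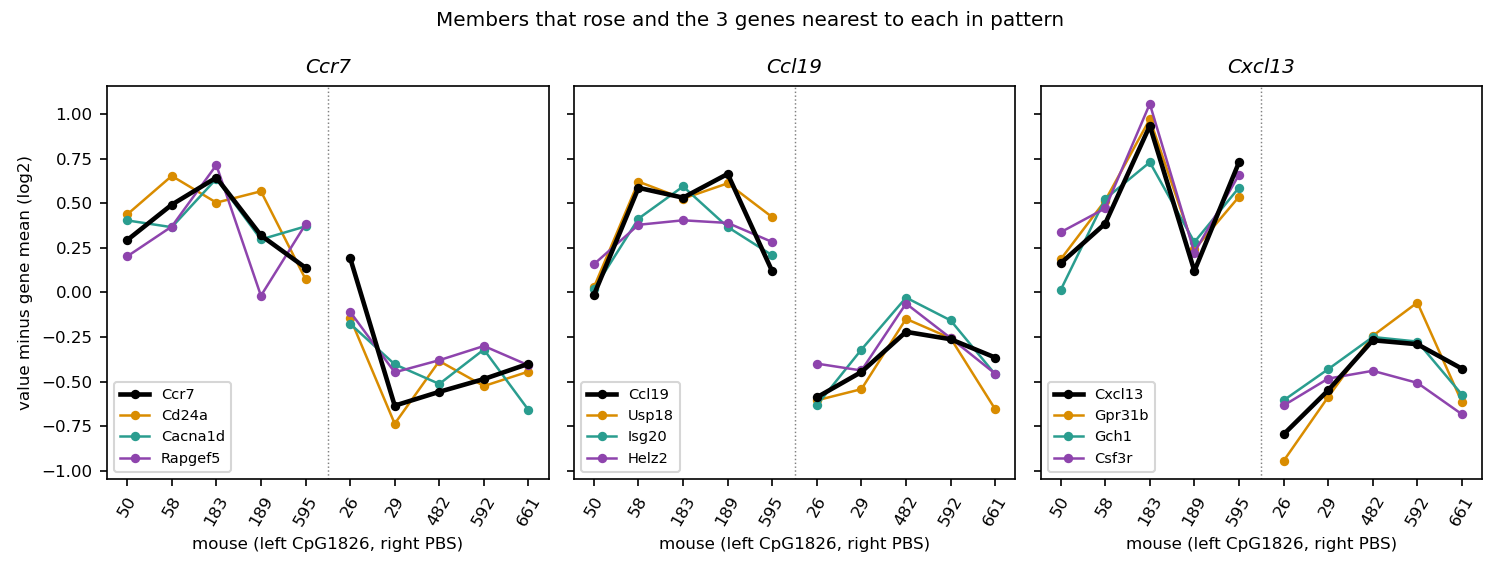
Values minus each gene's mean (log2, vertical axis) in the 10 tumors (horizontal axis, CpG1826 mice left of the dotted line, PBS mice right of it) for Ccr7, Ccl19 and Cxcl13 in black, each with its 3 nearest genes in color; lines only join the values of one gene. Mouse 183 is the peak of the Cxcl13 set, mouse 50 the lowest CpG1826 tumor of the Ccl19 set, and PBS mouse 26 the highest PBS tumor of the Ccr7 set.

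Genes of dendritic cell maturation, of which Ccr7 is one, rose in most members. Of 18 measured, 10 rose, Ccr7 itself and Relb among them, and 0 fell, with a median log2 difference of 0.48. Over all genes, 3.56% rose. Il12b, the p40 cytokine subunit, was at 3.26 and the checkpoint ligand gene Cd274 at 1.35. The costimulatory receptor gene Cd40 was at 1.27 and Cd200 at 0.95. The other 8 genes did not pass. Among them Lamp3, a marker of mature dendritic cells that was low on these arrays, was at 0.06. Fscn1, Marcksl1, Socs2 and Ido1 were at 0.30, 0.11, 0.07 and 0.36, and Cd86, Pdcd1lg2 and Tmem123 at 0.48, 0.81 and 0.28. Of 12 measured dendritic cell markers, 0 rose and 0 fell (2 were lower at an unadjusted limma p under 0.05), with a median of -0.08 and 9 of 12 differences negative. Itgax and Irf8, the members with the highest levels, were at 0.04 and 0.12, and Clec10a, Clec9a and Flt3 at -0.40, -0.32 and -0.16, with the groups of Flt3 apart. The mean level of these markers was 6.14 to 6.36 in CpG1826 tumors and 6.30 to 6.43 in PBS tumors. In whole tumors, fewer cells of a type and less RNA per cell cannot be told apart.

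Lymphotoxin signals drive Ccl19 and Cxcl13 in lymphoid stroma through non-canonical NF-κB. The part of this route in the rises of Ccl19 and Cxcl13 was not tested. Of 13 measured genes of this route or linked to it, 2 rose and 0 fell, where 3.56% of all genes rose and 1.1% fell. Relb and Nfkb2, the NF-κB subunits of this route, were at 0.45 and 0.22, and the lymphotoxin genes Lta and Ltb at -0.13 and -0.18 did not pass. The Nfkb2 call lay at the threshold (limma adjusted p = 0.0497).

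Markers of the cells known to carry the receptors were counted in the same way, where 4.66% of all genes passed in either direction. Of 10 measured B cell markers 0 rose and 0 fell (1 was lower at an unadjusted limma p under 0.05), with Cd79b at -0.23 and Vpreb3 at -0.03. The mean B cell level was 4.93 to 5.26 in CpG1826 tumors and 5.08 to 5.32 in PBS tumors. Of these B cell markers 0 lay above the median gene level and 5 below the lower quartile, so a change may be understated. Of 10 T cell markers 1 rose, the IL-7 receptor gene Il7r (1.18), and 0 fell. By contrast 8 of the 10 had negative differences, 2 of them at an unadjusted limma p under 0.05 (Cd3e at -0.35 and Cd5 at -0.19), and Cd3g was at -0.51. The mean T cell level was 6.85 to 7.35 in CpG1826 tumors and 6.77 to 7.37 in PBS tumors. Of 10 markers of regulatory, type 2 and type 17 helper T cells 1 rose, the IL-2 receptor gene Il2ra (0.86), which activated cells also express. Foxp3, which defines regulatory T cells, was at -0.06 and Il17a at -0.06.

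Levels of keratinocyte and neutrophil markers differed between the groups, as the 3 genes did. Among all genes, 3.56% were called higher. The mean keratinocyte level was 6.84 to 7.52 in CpG1826 tumors and 5.34 to 5.86 in PBS tumors, and 10 of 14 markers rose, among them Krt1 (3.06), Krt5 (2.95), Krt14 (2.60) and Krtdap (2.40). The mean neutrophil level was 5.74 to 6.23 in CpG1826 tumors and 5.13 to 5.32 in PBS tumors, and 6 of 10 markers rose, with S100a8 at 2.13, Cxcr2 at 1.64, S100a9 at 1.45 and Csf3r at 1.10. Mmp8 and Retnlg rose too (0.88 and 0.60), while the granule genes Ngp, Camp and Ltf and the lineage gene Ly6g did not pass (0.05, -0.07, -0.03 and 0.00). Ngp, Ltf and Ly6g lay in the lower quartile of gene levels, as did Mmp8 and Retnlg, so a change in them may be understated. The part of either cell type in the rises of Cxcl13, Ccl19 and Ccr7 was not tested. CpG1826 mouse 189 had the highest keratinocyte level of its group, the highest Ccl19 value and the lowest Cxcl13 value. Mouse 183 had the lowest keratinocyte level and the highest Cxcl13 and Ccr7 values. Mouse 50 had the highest neutrophil level of its group and the lowest Ccl19 value. Mouse 183 came next in neutrophil level (6.12), and the neutrophil marker Csf3r was among the 3 genes nearest to Cxcl13.

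**Figure D5:**
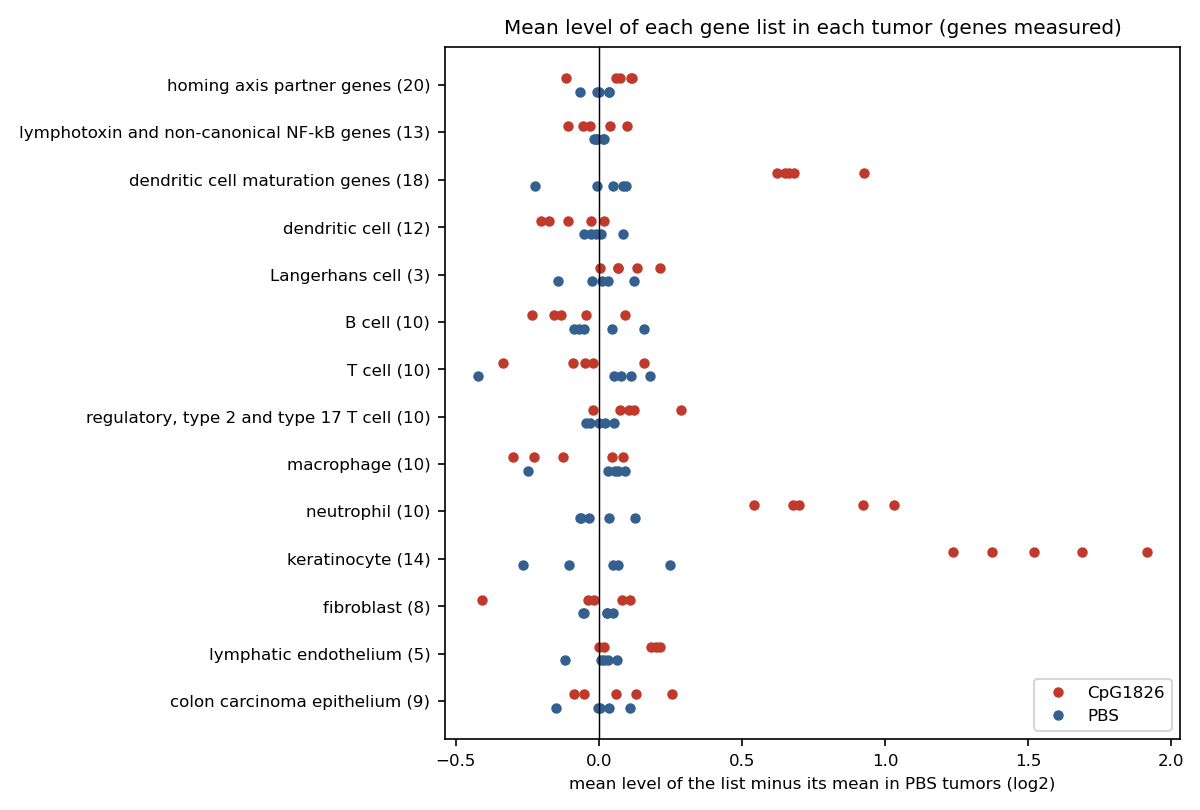
Mean level of each gene list in each tumor minus the list's mean in PBS tumors (log2, horizontal axis), with CpG1826 tumors in red above PBS tumors in blue and the number of measured genes in brackets. The keratinocyte, neutrophil and dendritic cell maturation lists stand apart between the groups, whereas the dendritic cell, B cell and T cell markers overlap.

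Other marker lists overlapped between the groups. Their counts stand beside 3.56% of all genes called higher and 1.1% called lower. Of 10 macrophage markers 1 rose and 1 fell, Fcgr1 (0.40) and the M-CSF receptor gene Csf1r (-0.46). Of 8 fibroblast markers 0 passed (2 were lower at an unadjusted limma p under 0.05), with Dcn at 0.09 and Col1a1 at -0.28, and of 5 lymphatic endothelial markers Pdpn (0.42), also a fibroblast and keratinocyte gene, rose. Of 3 genes listed for Langerhans cells Epcam (0.32) rose, with overlapping groups and a call at the threshold (limma adjusted p = 0.0485). Cd207, the defining one, was at 0.03. Of 9 epithelial markers of the labelled colon carcinoma, Cdh1 (0.63) and Epcam rose, and 3 lay below the lower quartile of gene levels (Krt19, Krt20 and Vil1), with no detection call at hand to say whether they were absent.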

How the data were processed

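Whole-transcript arrays were run on total RNA labelled with biotin, per the labels' protocols. The authors deposited 1 log2 value per probe and array. The values themselves gave the log base, and the array medians of 6.47 to 6.53 show a normalization between arrays of a method not given in the sources used here. Per the submitters' processing notes, R 2.7.1 and limma were used, with no role given.

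Of 35512 probes, 21789 carry exactly 1 gene symbol in the array's annotation table, 1621 several and 12102 none. Each of 19938 genes was read from its brightest probe by mean over the arrays. Genes were tested with limma 3.58.1 (lmFit, then eBayes) under R 4.3.3 (two-sided, Benjamini-Hochberg over all genes, threshold 0.05) and pairs of genes with an exact permutation test. Fold changes are CpG1826 over PBS. The groups share no mouse number, so no block was fitted.

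Named were the 10 genes, all measured partner genes, up to 4 passing genes of each other list with the largest change (where none passed, the 2 with the highest level), and the 3 genes nearest in pattern to each passing gene. Further list genes (Lamp3, Fscn1, Marcksl1, Socs2, Ido1, Cd86, Pdcd1lg2, Tmem123, Clec10a, Clec9a, Flt3, Lta, Ltb, Cd3e, Cd3g, Cd5, Foxp3, Il17a, Mmp8, Retnlg, Ngp, Camp, Ltf, Ly6g, Cd207, Krt19, Krt20 and Vil1) were chosen after their values were seen. Members and lists were chosen with earlier results of these data known. In data simulated for this comparison (19938 genes), 7 of 183 calls were false. The fit called 76 of 100 genes given a change of 0.5 on the log2 scale and 100 of 100 given a change of 1. The simulated noise was drawn for each gene on its own. Variation shared between genes was thus not covered, and these rates may not carry over to the tumors.

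Results were recomputed with quantile normalization on top of the deposited values, with each array centred on its median, with the lower 50% or lower 25% of genes by level dropped, with another prior (trended and robust) or array weights, with probe means per gene, with every probe as its own feature, with a stricter threshold (adjusted p under 0.01), and with 1 mouse left out at a time.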

Additional observations from a re-analysis of the deposited data

Results flagged for a closer look

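Of 36 sets of 5 tumors examined (the 10 genes, Cxcr6 and the 7 pairs in each group), 5 had 1 tumor far from the other 4, with a gap above 0.71 of the whole range, where chance gives about 1 in 20. The pair sets reuse the values of the same genes, so the 36 sets are not independent and the 5 flags are not separate. Ccr7 in PBS mouse 26 was 7.51, against 6.92 in the next PBS tumor, and this tumor also had the lowest PBS value of Ccl19 minus Ccr7 (-1.21) and the highest of Ccl17 minus Ccr4 (1.54). Cxcr5 in CpG1826 mouse 50 was 4.12, against 4.44 in the next tumor. Ccr6 in CpG1826 mouse 595 was 4.28, against 4.69 in the next tumor. No cause was tested for any of these values.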

How the results depend on the processing

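Cxcl13, Ccr7 and Ccl19 kept their direction and their call in every alternative that tested them. With the lower 50% of genes by level dropped, Ccr7, Ccl19 and Cxcl16 were the members still tested, and with the lower 25% dropped, all but Cxcr5, Ccr4 and Ccr6 were. Leaving out 1 mouse gave 0.82 to 1.02 for Cxcl13, 0.69 to 0.90 for Ccr7 and 0.68 to 0.85 for Ccl19. Cxcl16 (0.27) gained a call when the lower 50% of genes by level were dropped and with a trended and robust prior. Without 1 mouse, Ccl17 ran from -0.115 to 0.0188 (0.0188 without PBS mouse 26) and Ccl20 from -0.0880 to 0.0121 (above 0 without CpG1826 mouse 58, CpG1826 mouse 595 or PBS mouse 26), neither past the threshold. The pair change of Ccl19 minus Ccr7 was 0.0208 after a further quantile normalization and -0.196 to 0.0833 without 1 mouse. The number of all genes that fell, 220 as reported, was 364 with the added quantile normalization, 338 when the lower 50% of genes by level were dropped, 121 with all probes tested on their own, 64 at an adjusted p under 0.01 and 121 to 209 without 1 mouse, and the number that rose, 710 as reported, was 407 at an adjusted p under 0.01. The causes were not tested. Of 347 values computed under alternatives, 323 kept their direction and side of the threshold, or for counts stayed within 1.5 times. This total includes pair values, of which none on its own could pass the threshold. It also includes settings that leave a gene's log2 difference as it was, such as the level cuts, the other prior and the stricter threshold. The total therefore overstates how far the results were put to the test. No paired analysis was possible because the groups share no mouse number. Signal over background was not used here, so changes of dim probes may be understated.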
